A study of Mus musculus with 4 samples.

Results

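Transcripts of 9 genes of actin bundles and microvilli were followed in cells sorted from the mouse trachea and stomach. The genes were *Avil*, *Vil1*, *Espn*, *Ezr*, *Fscn1*, *Pls1*, *Eps8*, *Myo1a* and *Cdhr5*, taken by name from the 48709 genes of the deposited table, and all 9 were found. Cells came from adult C57BL/6 mice carrying Tas2r143-CreERT2;Rosa26flox-mT-stop-flox-mG, and all mice had received tamoxifen for 5 days and were taken 5 days later. Their exact ages are not given in the sources used here. CreERT2 is driven by the *Tas2r143* promoter on a bacterial artificial chromosome, so a cell with activity of this bitter taste receptor promoter, and its progeny, switches from red Tomato to green EGFP. EGFP-positive cells were sorted as live cells without an epithelial gate, whereas Tomato-positive cells were also gated on the epithelial protein EpCAM. Each of the 4 groups (EGFP and Tomato cells of trachea and stomach) is 1 library of cells pooled from 3 mice of 1 transgenic line. There was thus no replicate, and no test within a tissue was possible.

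Microvilli are finger-like protrusions that hold a core of parallel actin filaments. Bundling proteins tie the filaments together, other proteins cap them at the tip or link them to the membrane, and protocadherins join the tips of neighbouring microvilli. Tuft cells, the chemosensory epithelial cells also known as brush cells, are named after an apical tuft of long, blunt microvilli whose actin bundles reach deep into the cell body.

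Summed over all genes, the libraries held between 9.98 M normalized counts (EGFP, trachea) and 15.43 M (Tomato, stomach). The deposited value of a gene is a whole number, here called a normalized count. It was taken to be the reads of the gene divided by a library factor and rounded. The spacing of values put a single read at 1.61 normalized counts for EGFP cells of the trachea and at 0.786 to 0.816 for the others. The detection floor of 3 reads was therefore worth 4.83 normalized counts in the former and at most 2.45 in the others. Since even the 37 mitochondrial genes stand at 0 throughout, an exact 0 is reported only as listed. The sample labels name opposite tissues in title and tissue field. The libraries were grouped by title, and marker genes went with the title. The club cell genes *Scgb1a1*, *Scgb3a1*, *Scgb3a2* and *Cyp2f2* summed to 495816 in the Tomato library titled trachea and 69 in that titled stomach, and the chief cell genes *Pgc*, *Gif* and *Pga5* to 2 and 1083549. The 9 tuft cell markers summed to 63409 and 71281 in the EGFP libraries of trachea and stomach, and to 2006 and 3713 in the Tomato libraries. Only *Gfi1b* was at 0 in an EGFP library, that of the trachea. Immunoglobulin genes made up 12.9% of the EGFP library of the stomach and at most 0.549% of the others.

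The promoters of *Avil*, *Espn*, *Cdhr5* and *Vil1* are shown because the first 3 were higher in EGFP-positive cells of both tissues, while *Vil1*, the closest relative of *Avil* among the 9 genes, was called higher in the stomach alone. Each window holds the 250 bases before the RefSeq transcription start (build GRCm38.p6), 5′ to 3′ on the strand of the gene. *Avil* is on the plus strand at chr10:127000459-127000708, *Vil1* on the plus strand at chr1:74409134-74409383, *Espn* on the minus strand at chr4:152152390-152152639 and *Cdhr5* on the minus strand at chr7:141276787-141277036. *Espn* has other RefSeq starts, and the window of the one farthest upstream is given. Capitals mark matches to 5 motifs searched on both strands: ATGCAAAT, the octamer bound by POU2F factors, the CArG box of serum response factor, the TATA box as TATAAA, the GC box as GGGCGG and the motif CCAAT.
Avil: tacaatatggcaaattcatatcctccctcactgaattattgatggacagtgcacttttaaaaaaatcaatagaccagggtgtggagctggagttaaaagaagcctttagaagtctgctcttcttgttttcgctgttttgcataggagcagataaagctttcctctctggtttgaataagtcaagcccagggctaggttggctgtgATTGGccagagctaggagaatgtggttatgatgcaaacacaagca
Espn: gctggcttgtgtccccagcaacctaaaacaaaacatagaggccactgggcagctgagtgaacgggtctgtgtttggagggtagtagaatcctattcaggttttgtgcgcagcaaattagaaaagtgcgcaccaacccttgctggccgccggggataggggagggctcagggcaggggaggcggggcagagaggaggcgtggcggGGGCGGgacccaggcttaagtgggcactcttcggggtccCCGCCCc
Cdhr5: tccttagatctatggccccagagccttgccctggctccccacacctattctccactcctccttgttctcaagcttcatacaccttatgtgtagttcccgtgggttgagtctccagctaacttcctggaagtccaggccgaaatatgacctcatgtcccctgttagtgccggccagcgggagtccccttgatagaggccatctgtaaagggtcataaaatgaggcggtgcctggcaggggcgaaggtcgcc
Vil1: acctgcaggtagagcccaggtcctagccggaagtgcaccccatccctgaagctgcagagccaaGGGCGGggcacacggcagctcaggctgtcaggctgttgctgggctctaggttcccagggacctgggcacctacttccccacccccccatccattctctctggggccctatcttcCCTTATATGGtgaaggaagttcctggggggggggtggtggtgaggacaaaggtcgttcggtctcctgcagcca
The window of *Avil* held CCAAT on the opposite strand, beginning 45 bases before the start. In the *Espn* window GGGCGG stood 46 bases before the start and, on the opposite strand, 7 bases before it. In *Vil1*, whose last 8 bases shown lie in the first exon of GENCODE, the CArG box stood 73 bases and GGGCGG 187 bases before the start. *Cdhr5* had none of the 5 motifs. Over all 32851 promoter windows of the same length, 1.60% held the octamer, 1.47% the CArG box, 12.4% the TATA box, 32.7% the GC box and 33.8% CCAAT. RefSeq windows were at hand for 8 of the 9 genes, all but *Eps8*, and the octamer was in none of them. The 3 genes that were higher in both tissues shared no motif of this search in the windows shown. Another *Espn* window, at chr4:152136326-152136575, held CCAAT 126 bases before its start, a motif that *Avil* held as well. A further *Espn* window held GGGCGG on the opposite strand, 16 bases before its start. A match is a run of letters and not evidence of binding.

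In the trachea, *Avil*, *Espn* and *Cdhr5* were higher in EGFP-positive than in Tomato-positive cells, and none of the 9 genes was called lower. In the stomach, *Vil1* and *Myo1a* were higher along with these 3 genes, while *Fscn1* and *Eps8* were lower. *Pls1* and *Ezr* were called neither in either tissue. A gene was called higher or lower when log2((EGFP + 1)/(Tomato + 1)) reached 2 or -2 and the higher library held at least 50 normalized counts. In the trachea this rule called 25.2% of the 10523 genes at that minimum higher and 32.4% lower, together 57.6%, against 3 and 0 of the 9 genes, of which 6 reached the minimum. In the stomach it called 14.8% of 11094 genes higher and 22.4% lower, together 37.2%, against 5 and 2 of the 9 genes, all at the minimum. For the 9 genes log2(EGFP/Tomato) had a median of 1.07 in the trachea and 2.94 in the stomach, beside -0.32 and -0.15 over all genes at the minimum. The sets are unlike in the trachea, where the median of the 9 includes *Vil1*, *Fscn1* and *Myo1a*, which were under the minimum. Both medians of the 9 genes stayed at these values with zeros set to the floor of 3 reads. That says little, since the median gene, *Pls1* in the trachea and *Cdhr5* in the stomach, had no zero there. Scaling both libraries of a tissue to the same total raised log2(EGFP/Tomato) by a median of 0.57 in the trachea and 0.18 in the stomach. All called genes of the trachea then split into 3227 higher and 2943 lower, in place of 2651 and 3411. In bulk libraries, fewer cells of a type and less RNA per cell cannot be told apart, and each Tomato library is a mixture of cell types.

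**Figure D1:**
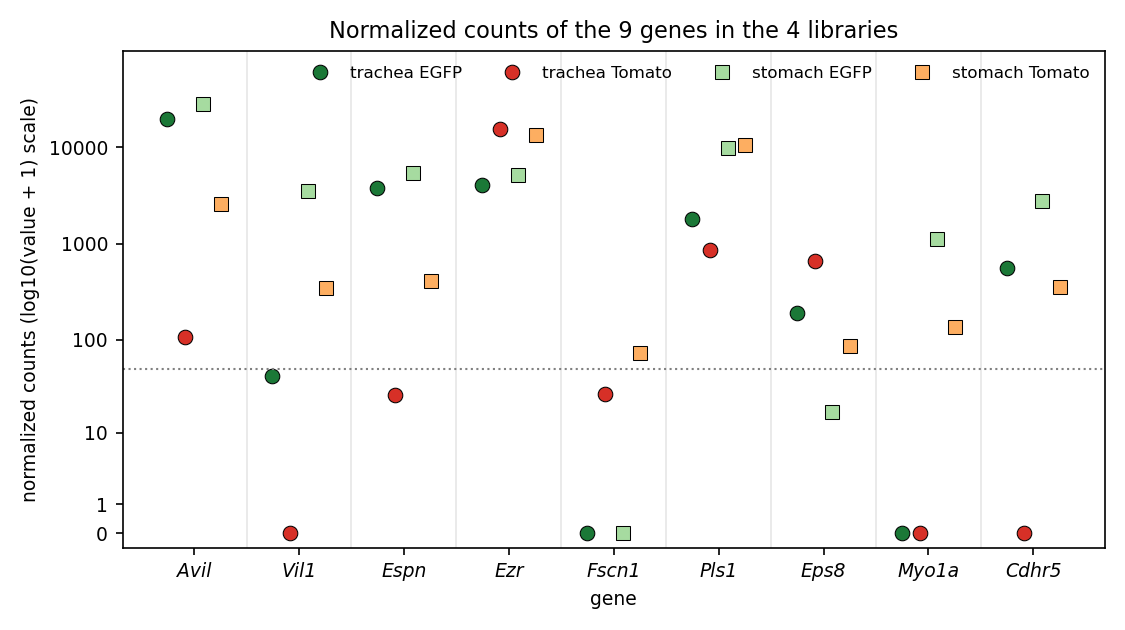
Normalized counts of each gene (horizontal axis) in the 4 libraries, on a log10(value + 1) axis, with 1 point per library and a dotted line at the minimum of 50. For Avil and Espn both EGFP points lie above both Tomato points, whereas for Ezr both Tomato points, at 15386 and 13498, lie above both EGFP points.

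*Avil* encodes advillin, an actin-binding protein of the gelsolin and villin family that is known from tuft cells and sensory neurons. It lies on chromosome 10 (GRCm38, chr10:127000709-127020994, plus strand). It was found at 19477 normalized counts in the EGFP library of the trachea, 107 in the Tomato library of the trachea, 27919 in the EGFP library of the stomach and 2598 in the Tomato library of the stomach. Both EGFP libraries stood above both Tomato libraries. The ratio of EGFP to Tomato was 182 in the trachea (95% interval 154 to 218) and 10.7 in the stomach (10.4 to 11.1). These and all following intervals are exact binomial intervals on estimated reads and cover counting error only. The lower ratio in the stomach went with a higher Tomato value, which was 24.3 times that of the trachea (20.4 to 29.2), while the EGFP values differed 1.43-fold (1.404 to 1.463). Of the 9 tuft cell markers, which summed to 2006 and 3713 in Tomato cells of trachea and stomach, 4 had the higher Tomato value in the stomach (*Dclk1* with 86 and 2049 among them), 4 in the trachea (*Pou2f3* with 300 and 105 among them) and *Il25* was at 0 in both. Their part in the *Avil* values was not tested. Neuronal markers were near 0 in the EGFP libraries, where *Tubb3*, *Prph*, *Snap25* and *Elavl4* summed to 2 in the trachea and 0 in the stomach. Of the exonic bases of *Avil*, 4.86% are shared with *Tsfm* on the opposite strand, and reads that overlapped several genes had been left out by the authors.

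*Vil1* encodes villin, which bundles, caps and severs actin filaments in the brush border. It was at 3482 normalized counts in EGFP cells and 347 in the Tomato library of the stomach, a ratio of 10.03 (95% interval 9.09 to 11.1). In the trachea it was at 42 in the EGFP library, about 26 reads, and listed at 0 in the Tomato library. The tracheal value lay under the minimum of 50, so *Vil1* was not called there. With totals set equal it reached the minimum and was called higher. EGFP-positive cells of the stomach held 82.9 times the normalized counts of those of the trachea (56.7 to 127). *Vil1* (chr1:74409376-74435559, plus strand) and *Avil* thus had like ratios in the stomach. The levels per kb of exon differed in EGFP cells of both tissues. They were 11.8 for *Vil1* and 5732 for *Avil* in the trachea, and 981 and 8216 in the stomach.

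*Espn* encodes espin, which bundles actin in microvilli and in the stereocilia of hair cells (chr4:152120331-152152371, minus strand). It was at 3810 and 26 normalized counts in EGFP and Tomato cells of the trachea and at 5352 and 412 in those of the stomach. As for *Avil*, both EGFP values were above both Tomato values. The ratio was 147 in the trachea (95% interval 104 to 216) and 12.99 in the stomach (11.9 to 14.2). Here too the Tomato value was higher in the stomach, by a ratio of 15.8 (11.1 to 23.5), while the EGFP values stood in a ratio of 0.712 of trachea to stomach (0.679 to 0.746).

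*Pls1* encodes plastin 1, also called fimbrin, a bundling protein of microvilli (chr9:95752642-95845311, minus strand). It stood at 1824 and 867 normalized counts in EGFP and Tomato cells of the trachea and at 9926 and 10510 in those of the stomach. Its libraries were ordered by tissue and not by sort. The ratio of EGFP to Tomato was 2.10 in the trachea (95% interval 1.93 to 2.29) and 0.944 in the stomach (0.921 to 0.968). Both lay inside the 4-fold rule, and with both libraries scaled to the same total the log2(EGFP/Tomato) of the stomach turned from -0.08 to 0.10. Between the EGFP libraries, *Pls1* was 5.44 times higher in the stomach (5.12 to 5.79), and between the Tomato libraries 12.1 times (11.4 to 12.9).

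*Fscn1* encodes fascin, which bundles actin in filopodia and is known from dendritic cells and neurons (chr5:142960343-142973185, plus strand). It was listed at 0 in both EGFP libraries, where the floor of 3 reads was worth 4.83 and 2.36 normalized counts, and was at 27 and 73 in Tomato cells of trachea and stomach. It was called lower in the stomach, whereas the tracheal value did not reach the minimum. Summed myeloid markers were also higher in the Tomato than in the EGFP libraries. Between the Tomato libraries their sum was higher in the trachea, whereas *Fscn1* was higher in the stomach, and single markers went either way. The 7 genes of this list summed to 527 and 83 normalized counts in the EGFP libraries of trachea and stomach. In the Tomato libraries they summed to 46017 and 12757. Of these sums, *Lyz2* gave 35491 and 5413, *H2-Aa* 8389 and 5449 and *Itgax* 1623 and 4, each higher in the trachea. Higher in the stomach were *Cd68* (151 and 727), *Fcer1g* (187 and 945), *Csf1r* (176 and 217) and *Ccr7* (0 and 2). The 4 neuronal markers summed to 362 and 1610 with Tomato, of which *Snap25* gave 362 and 1496. *Tubb3* was at 0 and 22 and *Prph* at 0 and 1. The 5 enteroendocrine markers summed to 184 and 255927 with Tomato and to 3 and 779 with EGFP. The part of these cells in the *Fscn1* values was not tested.

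*Eps8* encodes a protein that caps and bundles filaments at the tips of microvilli (chr6:137477245-137654876, minus strand). It was at 192 and 668 normalized counts in EGFP and Tomato cells of the trachea, and at 17 and 86 in those of the stomach. In each tissue the Tomato library had the higher value. Tomato cells held 3.48 times the value of EGFP cells in the trachea (95% interval 2.87 to 4.26), just inside the rule, and 5.06 times in the stomach (3.11 to 8.24), where about 22 reads were behind the EGFP value. The log2(EGFP/Tomato) of the stomach, -2.27, moved inside the rule with a pseudocount of 10 (-1.83) and with totals equalized without immunoglobulin genes (-1.91). *Eps8* was the single gene of the 9 that was called higher in the EGFP cells of the trachea than in those of the stomach, by a ratio of 11.3 (6.99 to 18.3).

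*Ezr* encodes ezrin, which links actin filaments to the plasma membrane (chr17:6738041-6782784, minus strand). It was at 4045 and 15386 normalized counts in EGFP and Tomato cells of the trachea and at 5214 and 13498 in those of the stomach. Both Tomato values were above both EGFP values, by ratios of 3.80 in the trachea (95% interval 3.65 to 3.97) and 2.59 in the stomach (2.52 to 2.66). The log2(EGFP/Tomato) of -1.93 and -1.37 lay inside the rule of size. They came to -1.35 and -1.19 with the libraries of a tissue scaled to the same total. *Ezr* differed little between tissues, with a ratio of stomach to trachea of 1.29 in EGFP cells (1.23 to 1.35) and of trachea to stomach of 1.14 in Tomato cells (1.12 to 1.16). Parietal cells use ezrin at their secretory canaliculi. Their markers *Atp4a*, *Atp4b* and *Kcne2* summed to 16807 in the Tomato library and 5124 in the EGFP library of the stomach, but to 19 and 749 in those of the trachea, where only *Atp4a* was above 0. Their part in the *Ezr* values was not tested.

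*Myo1a*, the brush border myosin that ties the actin core to the membrane of microvilli (chr10:127705170-127720940, plus strand), was listed at 0 in both libraries of the trachea. It was at 1129 and 136 normalized counts in EGFP and Tomato cells of the stomach, a ratio of 8.30 (95% interval 7.05 to 9.78). Among the 9 genes it alone was listed at 0 throughout a tissue.

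*Cdhr5* encodes a protocadherin that pairs with that of *Cdhr2* between the tips of microvilli (chr7:141269083-141276786, minus strand). It was at 560 normalized counts in the EGFP library of the trachea and listed at 0 in the Tomato library. In the stomach EGFP cells held 2752 and Tomato cells 358, a 7.69-fold difference (95% interval 6.95 to 8.50). The log2(EGFP/Tomato) in the trachea, 9.13, rests on the pseudocount, and was 12.45 with 0.1 and 5.83 with 10. EGFP cells of the stomach held 4.91 times the normalized counts of those of the trachea.

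**Figure D2:**
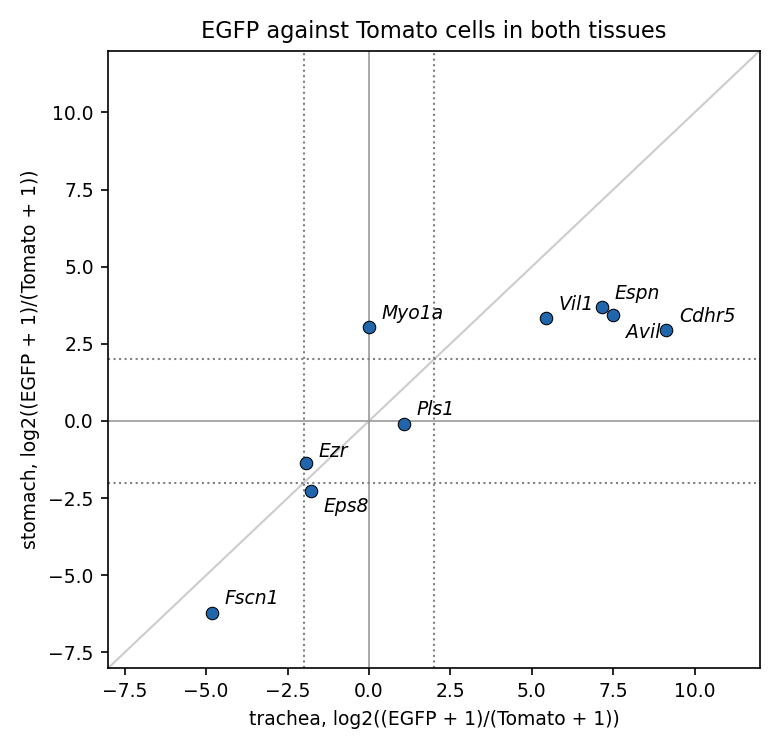
Each point is a gene, with log2((EGFP + 1)/(Tomato + 1)) of the trachea on the horizontal and of the stomach on the vertical axis, dotted lines at the 4-fold rule and a solid diagonal where both tissues are equal. Avil, Espn and Cdhr5 lie beyond the rule on both axes and right of the diagonal, and Myo1a sits at 0 and 3.04.

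Differences of log2(EGFP/Tomato) between the tissues, trachea minus stomach, were 4.07 for *Avil*, 3.44 for *Espn* and 6.19 for *Cdhr5*. The value of *Cdhr5* rests on a tracheal Tomato value of 0 and was 2.92 with a pseudocount of 10 and 9.51 with 0.1. *Myo1a*, listed at 0 in the trachea, went the other way with -3.04. The differences were -0.56 for *Ezr* and 0.48 for *Eps8*. With 1 library per group these differences could not be tested. The tissues served as the only repeat of the sort in a fit with limma on log2(normalized count + 1) of all 4 libraries, with tissue as a block and Benjamini-Hochberg adjustment over 13023 genes. *Avil*, with 5.46 ± 0.73 (SE) on the log2 scale and an adjusted p of 1.01e-10 in limma, *Espn* with 5.42 ± 1.14 and 0.000312, and *Cdhr5* with 6.04 ± 1.79 and 0.0369 passed the threshold, each higher in both tissues. The fit called 2.33% of all genes. *Ezr*, at -1.65 ± 0.59, had an adjusted p of 0.134, *Vil1* 0.424, *Fscn1* 0.757, *Eps8* 0.840, *Pls1* 0.881 and *Myo1a* 0.907 in limma. The fit has 1 residual degree of freedom and took its error from the trend over all genes and not from the gene itself, so these p-values are too firm for 4 libraries. Without the tissue block, and likewise without a minimum level, limma called 0 genes (776 and 819 genes at an unadjusted p under 0.05, 3 and 4 of the 9 among them). Over 8 alternatives, the adjusted p ranged from 2.64e-14 to 0.793 for *Avil*, from 3.63e-05 to 0.793 for *Espn* and from 0.0216 to 0.816 for *Cdhr5*. *Avil* passed in 6 of them, *Espn* in 5 and *Cdhr5* in 3.

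Levels of different genes were compared as normalized counts per kb of exon. In the EGFP library of the trachea, *Avil* made up 70.6% of the summed level per kb of the 9 genes, *Ezr* 15.1%, *Pls1* 5.77%, *Espn* 5.67% and *Cdhr5* 2.52%. In the Tomato library of the trachea, *Ezr* alone made up 93.6% of this sum and *Avil* 0.63%. In the stomach, the EGFP library held 53.7% *Avil*, 16.7% *Pls1*, 10.4% *Ezr*, 6.57% *Cdhr5*, 6.41% *Vil1*, 4.23% *Espn* and 1.99% *Myo1a*. The Tomato library of the stomach held 51.8% *Ezr*, 34.1% *Pls1* and 9.66% *Avil*. *Avil* therefore led the 9 genes in both EGFP libraries and *Ezr* in both Tomato libraries. By level per kb, *Avil* ranked 66 among the 11494 genes above 0 with a known length in the EGFP library of the trachea and 97 among 15124 in that of the stomach. It ranked 6799 among 13528 in the Tomato library of the trachea and 837 among 16142 in that of the stomach. *Ezr* ranked 148 and 139 in Tomato cells of trachea and stomach, and 503 and 511 in the EGFP libraries. The 9 genes together held 3001 and 4094 normalized counts per M in the EGFP libraries of trachea and stomach and 1149 and 1815 in the Tomato libraries.

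**Figure D3:**
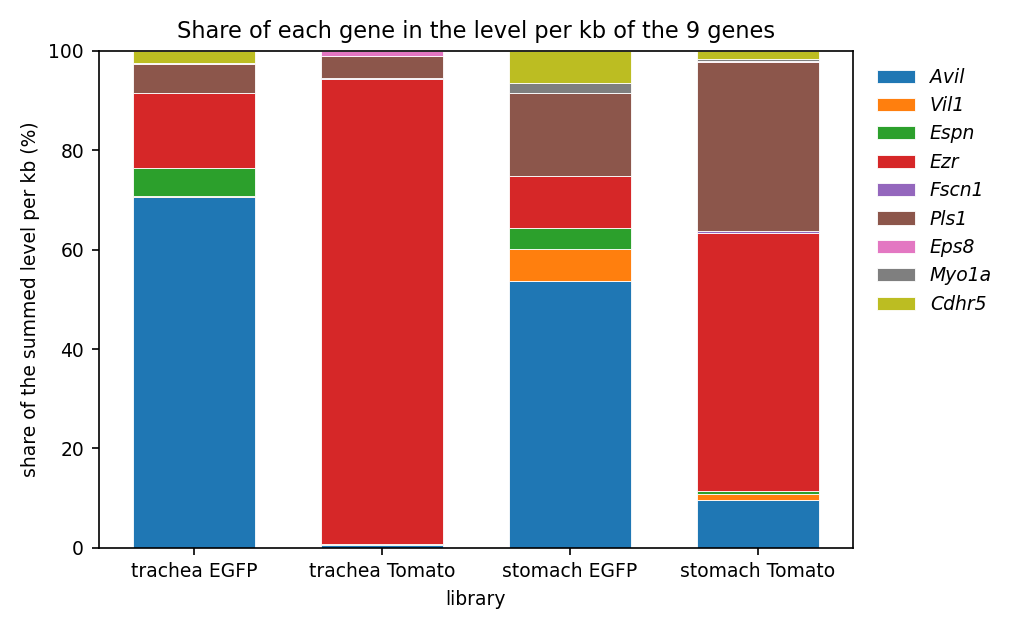
Stacked bars give the share of each of the 9 genes in their summed level per kb of exon, in percent, for the 4 libraries. Avil takes 70.6% and 53.7% in the EGFP libraries of trachea and stomach, and Ezr takes 93.6% and 51.8% in the Tomato libraries.

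Between the EGFP libraries of the tissues, 4 of the 9 genes were lower in the trachea (*Vil1*, *Pls1*, *Myo1a* and *Cdhr5*), 1 was higher (*Eps8*) and *Avil*, *Espn* and *Ezr* were called neither. The same rule called 28.3% of 10337 genes lower and 19.8% higher, together 48.1%. With totals set equal, *Pls1* and *Cdhr5* moved inside the rule and 2 genes remained lower. Between the Tomato libraries, 6 genes were lower in the trachea, namely these 4 with *Avil* and *Espn*, and again *Eps8* was higher, beside 27.9% lower, 20.3% higher and thus 48.2% called among 11338 genes. *Avil* and *Espn* thus differed by less than the rule between the EGFP libraries of the tissues and by more than it between the Tomato libraries, while *Vil1*, *Myo1a*, *Pls1* and *Cdhr5* were higher in the stomach in both sorts. The 2 comparisons of tissues share no library with each other, but each library also stands in a comparison of sorts.

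The 9 genes were set beside 50 other genes of the same roles. In the trachea 3 of these were called higher (among them *Nf2* and *Myo1h*) and 13 lower, and 13 did not reach the minimum. With totals set equal, 6 were higher and 10 lower there. In the stomach 6 were higher and 8 lower, with 9 under the minimum. The minimum was thus reached by 37 of the 50 in the trachea and 41 in the stomach. Among all genes at the minimum, the rule called 25.2% higher and 32.4% lower in the trachea. In the stomach these shares were 14.8% and 22.4%. *Gsn*, *Scin*, *Pls3* and *Eps8l1* were called lower in both tissues, the last not so with totals set equal. The other relatives of *Avil* and *Vil1* went the other way in the trachea. All 6, *Vill*, *Svil*, *Gsn*, *Scin*, *Capg* and *Flii*, were lower there, and with totals set equal all but *Vill* were. Of these, gelsolin (*Gsn*), which severs and caps filaments, was at 816 and 25105 in the trachea and 571 and 13038 in the stomach, in the order EGFP, Tomato. Scinderin (*Scin*) was listed at 0 in both EGFP libraries and at 84 and 69 in the Tomato libraries. *Capg*, a capping protein, was at 335 and 4613 in the trachea but at 205 and 380 in the stomach, where it was not called. *Flii* was at 84 and 636 in the trachea and 888 and 825 in the stomach. The 4 fibroblast markers, which include no gene of these roles, summed to 447 and 184 in the EGFP libraries of trachea and stomach and to 25031 and 21014 in the Tomato libraries. Their part in *Gsn* was not tested. *Vill*, *Svil*, *Myo1h* and, in what follows, *Eps8l3*, *Ush1c* and *Myo7b* were named after their values were seen.

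Among the other bundling proteins, *Pls3* was listed at 0 against 1573 normalized counts in the trachea and at 41 against 291 in the stomach. *Lcp1*, the plastin of leukocytes, was called neither (higher in the trachea with totals set equal), at 1005 and 256 in the trachea and 2011 and 1350 in the stomach. Of the relatives of *Eps8* and the tip proteins, *Eps8l1* was at 140 and 572 in the trachea and 28 and 201 in the stomach. *Eps8l2* was at 190 and 1214 in the trachea and 828 and 288 in the stomach, lower in the former and not called in the latter. *Baiap2l2*, a membrane-bending protein, was listed at 0 against 825 in the trachea and at 0 against 20 in the stomach, and the actin nucleator *Cobl* at 0 against 250 and at 19 against 66. No gene of this role group was therefore called higher in the EGFP cells of the trachea. *Eps8l3* alone was higher in the stomach, at 2897 and 692, and was listed at 0 in the trachea.

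Some of the other linkers to the membrane were called, each in 1 tissue. *Nf2*, the gene of merlin, was higher in the trachea, at 3815 normalized counts with EGFP and 264 with Tomato, and not called in the stomach at 283 and 238. *Slc9a3r1*, a scaffold that binds ezrin, was lower in the trachea at 604 and 2871, though not with totals set equal, and not called in the stomach at 1381 and 1230. The ezrin relative radixin (*Rdx*) was at 150 and 125 in the trachea but at 9 and 289 in the stomach, where it was called lower. *Slc9a3r2*, at 24 and 335, was lower in the stomach as well. Among the myosins, *Myo1c* was lower in the trachea, at 13 and 279, and not called in the stomach at 248 and 196. *Myo1f*, known from leukocytes, and *Myo7a* were lower in the stomach, at 3 and 115 and at 0 and 72.

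Genes of the adhesion complex between microvilli were called differently in the tissues. In the EGFP library of the stomach the partner of *Cdhr5*, *Cdhr2*, was at 10773 normalized counts, beside 683 in the Tomato library. *Anks4b*, a scaffold of the complex, was at 355 and 1, and *Calml4*, a light chain of its myosin, at 4848 and 331. With *Cdhr5*, these made 4 genes of the complex at the minimum in the stomach, and each was called higher. Among all genes at the minimum there, the rule called 14.8% of 11094 higher. *Anks4b* reached the minimum through the EGFP library alone. The scaffold *Ush1c* was at 8 and 0 and the myosin *Myo7b* at 1 and 0, the latter under the floor of 2.36 normalized counts. In the trachea, *Cdhr2* was at 2 in the EGFP library, under the floor of 4.83, and 0 in the Tomato library, *Anks4b* was listed at 0 in both and *Calml4* was called neither at 163 and 89. *Cdhr5* was therefore found in the EGFP cells of the trachea while *Cdhr2* was not detectable at this depth.

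General filament proteins were called neither higher nor lower in both tissues for all 11 genes. *Actb* was at 115042 and 246370 in the EGFP and Tomato libraries of the trachea and 374499 and 225281 in those of the stomach. *Capzb* was at 2964 and 6358 in the trachea and 4510 and 3138 in the stomach, *Capza2* at 2623 and 4949 and at 3024 and 2627, and *Arpc3* at 179 and 398 and at 385 and 420. The 11 genes had a median log2(EGFP/Tomato) of -0.56 in the trachea and 0.20 in the stomach, and of 0.02 and 0.38 with totals set equal.

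**Figure D4:**
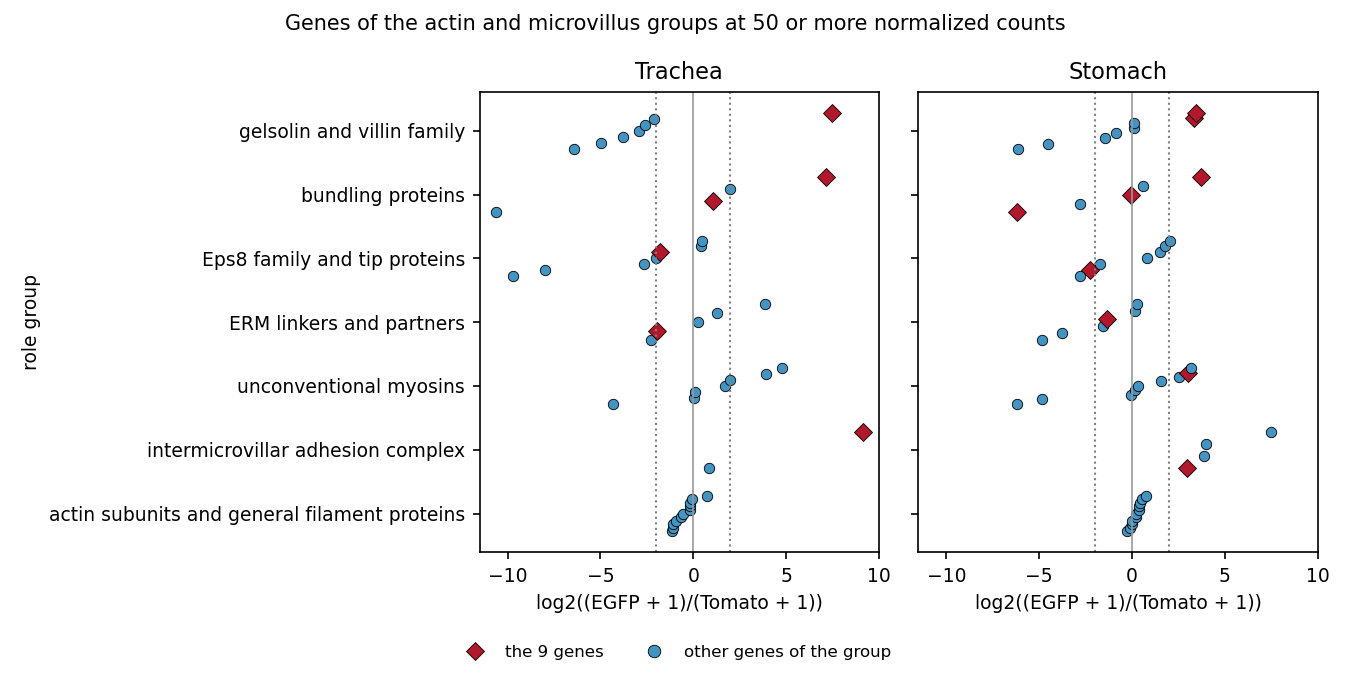
Genes at 50 or more normalized counts are plotted by role group with log2((EGFP + 1)/(Tomato + 1)) on the horizontal axis for trachea (left) and stomach (right), diamonds for the 9 genes and circles for the others, and dotted lines at the 4-fold rule. In the gelsolin and villin family Avil lies at 7.49 in the trachea and the other 6 genes plotted lie under -2. Vil1, under the minimum in the trachea, is not plotted there. The 11 general filament proteins lie between the lines in both tissues.

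Genes with the most similar pattern were sought by the Euclidean distance between log2 profiles over the 4 libraries, each centred on its mean. For *Avil* the nearest genes were *Rab44* and *Espn*, both at a distance of 0.46. *Rab44* was at 438 and 2 normalized counts in EGFP and Tomato cells of the trachea and 492 and 56 in those of the stomach. The nearest genes to *Espn* were *Inpp5d* at 0.28 and *C2cd2l* at 0.41, and to *Cdhr5* *Plpp1* at 0.81 and the myosin gene *Myo15b* at 0.95. *Vil1* lay nearest to the immunoglobulin segments *Ighv3-2* at 0.63 and *Ighj4* at 1.51, and *Myo1a* to the trypsin gene *Prss1* at 0.30 and to *Ighv5-15* at 0.35. The 7 B and plasma cell markers summed to 17948 and 1543 in the EGFP and Tomato libraries of the trachea and to 723068 and 37172 in those of the stomach. Of the defining B cell genes, *Ms4a1* was at 0 in all libraries, and the part of these cells in *Vil1* and *Myo1a* was not tested. *Ezr* lay nearest to the ribosomal gene *Rpsa* at 0.11 and to *Vill* at 0.16. *Pls1* was closest to *Cpt2* (0.16) and *Nampt* (0.26), *Eps8* to *N4bp2l1* (0.15) and *Zfx* (0.49), and *Fscn1* to *H2-Q6* (0.99) and *Plekhm3* (1.11). Distances over 4 libraries are a description.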

How the data were processed

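RNA-seq libraries of EGFP-positive and Tomato-positive cells from trachea and stomach were made with a SMART-Seq kit without molecular identifiers. For trimming, alignment to GRCm38 and counting per gene the authors used Reaper, STAR 2.4.0a and featureCounts 1.4.5-p1, leaving out reads on several genes or places. The deposited score is a normalized count, rounded to a whole number. The sources used here do not say how its factors were set. Samples were grouped by title, since title and tissue field disagree. Of symbols on several lines (116), the line with the largest total was kept.

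Genes were called by size, from 4-fold on with a pseudocount of 1 and a minimum of 50 normalized counts, without a test. The worth of a read was estimated from the spacing of values within each library, and whole reads could not be recovered throughout. limma 3.58.1 (R 4.3.3) was used over all 4 libraries. Exon lengths and positions came from GENCODE vM21 (GRCm38) and promoters from RefSeq. Scripts were tested on simulated data. The 9 genes and all gene lists were chosen with earlier results of these data known. Named besides were up to 4 genes of each role group with the largest log2 ratio between the sorts, and the 2 nearest genes of each of the 9 among genes at 200 or more. Values of some genes under these rules are not reported here. Alternatives were pseudocounts of 0.1 and 10, other scalings, no minimum or a minimum of 500, and no tissue block.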

Additional observations from a re-analysis of the deposited data

Results flagged for a closer look

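*Pls1* stood out because its log2(EGFP/Tomato) was positive in the trachea (1.07) and negative in the stomach (-0.08), a difference of 1.15. With 1 library per group the difference was not tested. The sign in the stomach turned to 0.10 with both libraries scaled to the same total.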

How the results depend on the processing

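No paired analysis was possible because each group holds 1 library and the labels give no replicate numbers, so the only block used was the tissue in limma. The numbers of the 9 genes called higher were within 1.5 times in both sort comparisons under the 7 alternatives. Of the genes called lower, *Fscn1* was added in the trachea without a minimum (1 in place of 0). In the stomach 1 in place of 2 was lower with a pseudocount of 10 and with totals equalized without immunoglobulin genes, and 0 with a minimum of 500. Between the EGFP libraries, 2 in place of 4 genes were lower in the trachea with totals set equal, and 0 in place of 1 was higher with a minimum of 500. Between the Tomato libraries, 2 in place of 6 were lower with that minimum. Fewer genes reach a minimum of 500, which removes some of the 9 by construction. For the other changes the cause was not tested. Of 34 log2 ratios of single genes, none that was called changed sign, and 8 left their counting interval with a pseudocount of 10, 16 with totals set equal and 17 with totals equalized without immunoglobulin genes. In limma, 1 in place of 3 genes passed with a pseudocount of 0.1 (*Avil*), 2 with a pseudocount of 10 or a minimum of 500 (*Avil* and *Espn*), and 0 without a minimum or without the tissue block. Values under 50 normalized counts rest on few reads, above all for EGFP cells of the trachea, with an estimated 6.2 M reads on genes, against 17.3 to 18.9 M in the others.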
